A study of Mus musculus with 69 samples.

Results

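Dorsal skin of F1 mice taken 6 h after a single application of TPA was compared with untreated F1 dorsal skin. The F1 mice were hybrids of the laboratory strain FVB/N and the wild-derived Spret/Ei (Mus spretus), aged 8 weeks, and per the labels their backs were shaved before TPA in acetone was applied. The comparison uses 6 of the 69 arrays of the series: 2 arrays of TPA-treated skin at 6 h and 4 arrays of untreated skin, labelled 0 h. They were chosen by their labels for strain and hour, and each of the 2 batches that hold F1 skin supplied 1 array at 6 h and 2 at 0 h. The 2 F1 arrays at 4 h and the 2 at 12 h were used to place the 6 h values in time, and 3 FVB arrays at 6 h and 3 at 0 h to set the size of the changes beside those of one parent strain. The protocol text names a vehicle arm, but no array labelled as vehicle was analysed here, so effects of acetone and of the time since shaving cannot be told apart from those of TPA. The labels do not say whether arrays of a group came from separate mice. The p-values measure only spread between arrays of a group. For each gene that spread was shared over 66 arrays of the series, not taken from the 6 compared alone.

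TPA, 12-O-tetradecanoylphorbol-13-acetate, is the classical tumour promoter of mouse skin. It takes the place of diacylglycerol on protein kinase C and on related diacylglycerol receptors, and through them activates the ERK cascade, AP-1 (Fos and Jun family dimers) and NF-kappaB. In the epidermis it is known for a sequence of inflammation, altered keratinocyte differentiation and a later wave of proliferation. An expression value here is the deposited log2 signal of the probe set that stands for a gene, so a difference of 1 unit is a doubling, and values of different probe sets are not compared with each other. A gene was called higher or lower when its limma adjusted p (Benjamini-Hochberg over 18820 genes, two-sided) was under 0.05 and its change was at least 1 log2 unit. Changes are given as 6 h minus 0 h with their standard error (SE).

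Markers of cell types were read first. All 8 markers of interfollicular keratinocytes lay above the array median in the untreated skin, among them the basal keratins Krt5 and Krt14 and the suprabasal keratins Krt1 and Krt10. This is a coarse mark, since it sets probe sets of different genes against each other. No keratinocyte marker of the list was called. Their mean, relative to each gene's mean over 66 arrays, was 0.03 and -0.51 at 6 h, against 0.08 to 0.20 in untreated skin. Arrays of one group correlated at 0.990 for the 2 treated arrays and between 0.975 and 0.990 for the 4 untreated arrays across all genes, against 0.922 to 0.964 for a treated with an untreated array. Untreated array 1 stood apart in its hair shaft markers: their mean, relative to each gene's mean over 66 arrays, was -0.86 and -1.63 log2 units at 6 h, against 2.99 in that array and -1.45 to -0.98 in the other 3 untreated arrays. Untreated array 2 stood apart in skeletal muscle: the 12 muscle markers averaged 1.89 and 2.16 at 6 h, against -1.16 in that array and 0.80 to 1.25 in the other 3. None of the 12 muscle and none of the 9 adipocyte markers was called, with median changes of 1.65 and 0.96 log2 units. The myosin genes Myh1 and Myh4, Actn3 and the actin gene Acta1 were at 2.25, 1.77, 1.80 and 1.79, and the adipocyte genes Cidec, Retn, Lep and Adipoq at 2.03, 1.57, 1.53 and 1.06. The hair shaft and sheath keratin genes Krt25, Krt33a, Krt27 and Krt71 were at -1.70, -1.61, -1.54 and -1.49, none of them called. Markers of liver and pancreas gave no call. The mean of the pancreas markers was -0.38 in the first and 0.67 in the second 6 h array, against -0.33 to -0.04 in untreated skin.

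**Figure D1:**
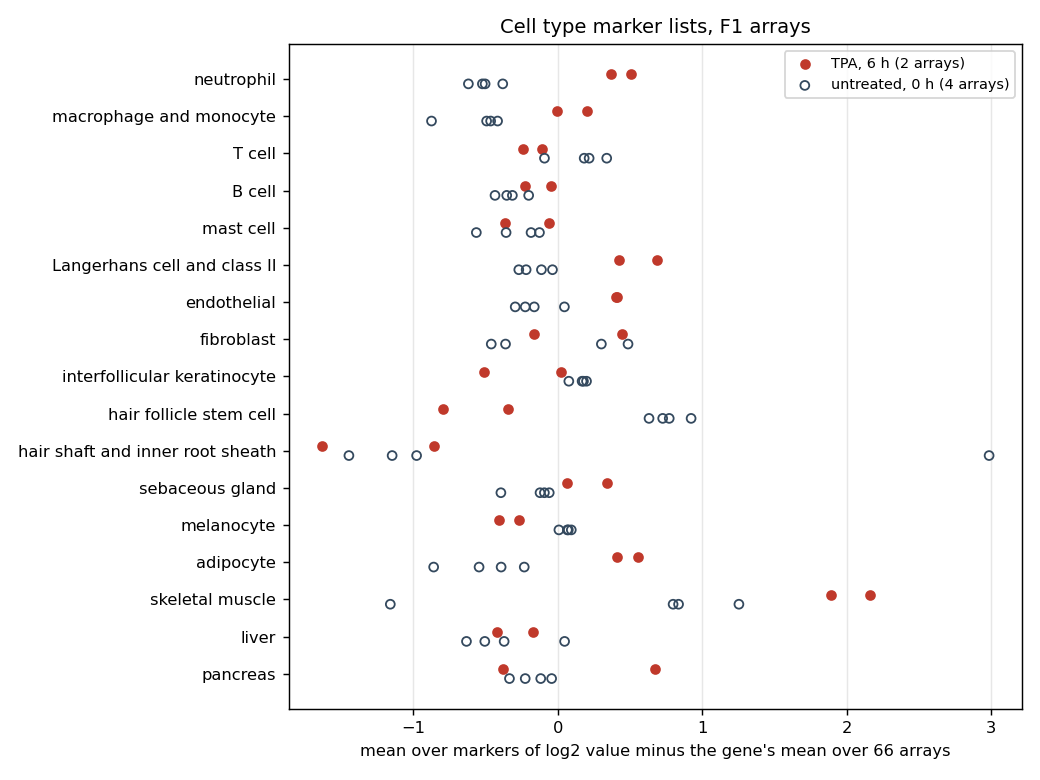
Mean level of the markers of each cell type in each F1 array, as log2 units from each gene's mean over the 66 assigned arrays (x axis); filled points are the 2 TPA arrays at 6 h and open points the 4 untreated arrays. The neutrophil, macrophage, Langerhans cell, endothelial, adipocyte, sebaceous and muscle lists lie higher at 6 h, the hair follicle stem cell, melanocyte, T cell and interfollicular keratinocyte lists lie lower, and untreated array 1 stands alone at 2.99 for hair shaft.

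At 6 h, 1960 genes (10.4% of those tested) were called, 1023 of them higher (5.44%) and 937 lower (4.98%). Without the threshold on size 3569 genes (19%) passed, and 5647 (30%) had an unadjusted p under 0.05. For 9685 genes (51.5%) both treated arrays lay beyond all 4 untreated arrays on one side, and 1958 of the called genes did so. The median change over all genes was 0.0025 log2 units. All 1960 called genes had 1 direction in both batches, and 1248 of them by at least 1 log2 unit in each. The calls rest on the same arrays, so a shared direction was nearly fixed in advance and is no replication. The treated array of batch 3 showed the larger change for 1783 of the called genes. Their median absolute change was 1.65 within batch 3 and 1.14 within batch 2. Without that array, the second of the 2 at 6 h, 825 genes were called, and with batch 2 alone 142, against 3442 with batch 3 alone. The mean of a gene over the arrays of batch 3 differed from that over batch 2 with an SD of 0.0389 log2 units over genes. The labels and processing notes do not say whether the batches had been adjusted to each other. The part of the batch in the unequal changes was not tested. Below, "without the second 6 h array" gives the count or value that remains when that array is left out. Counts of list members called stand beside the 5.44% called higher and 4.98% called lower over all genes.

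**Figure D2:**
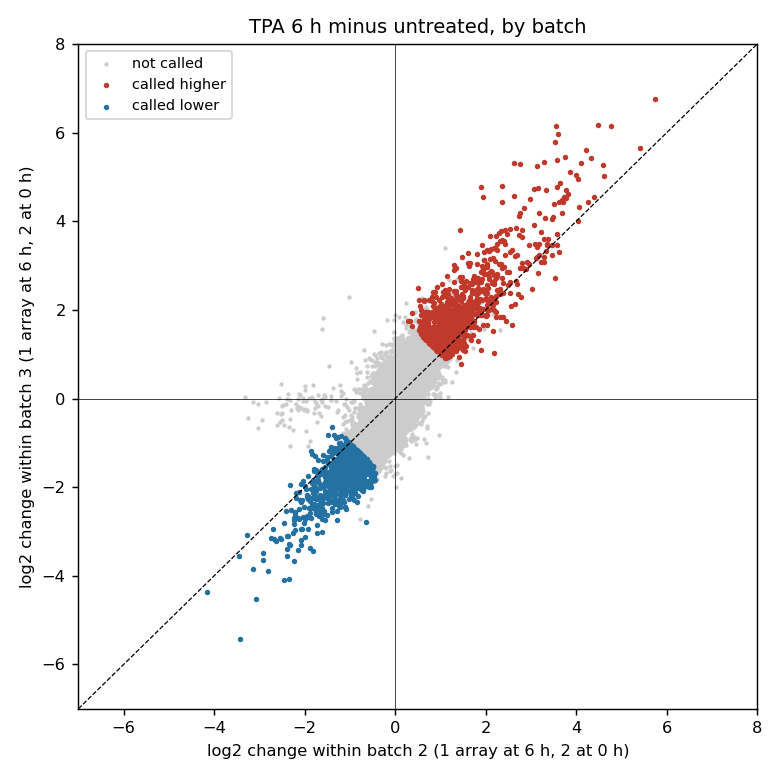
Change at 6 h of every gene within batch 2 (x axis) and within batch 3 (y axis), in log2 units, each from 1 TPA array and 2 untreated arrays; red points are genes called higher, blue points genes called lower, grey points not called, and the dashed line marks equal changes. Called genes lie to the upper right and lower left of 0, most of them farther from 0 on the batch 3 axis.

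The largest rises were of acute-phase and antimicrobial genes. Lcn2 (probe set 10481627), which encodes lipocalin 2, a protein that withholds iron from bacteria by binding their siderophores, stood at 11.43 and 11.32 at 6 h, against 6.07, 4.20, 5.31 and 4.91 in untreated skin. Both treated arrays lay far above the highest untreated one, and the change was 6.25 (SE 0.71, adjusted p = 1.25e-08), or 76.4-fold. Saa3, a serum amyloid A made outside the liver, read 9.81 and 9.52 at 6 h, against 4.31, 3.55, 4.48 and 4.17 in untreated skin, a rise of 5.54 (SE 0.76). Its relative Saa2 rose by 5.46, and Defb3, a beta-defensin that kills microbes, rose by 5.32, to 10.34 and 11.55 at 6 h against 4.61 to 6.36. The calprotectin subunits S100a8 and S100a9, abundant in neutrophils and in activated keratinocytes, rose by 4.84 and 4.47. Slpi, an inhibitor of leukocyte elastase, rose by 4.02, and Chil1, a chitinase-like lectin, by 4.17. Of 18 antimicrobial and alarm genes measured, 12 were called higher and none lower, with a median of 2.11, and 9 remained without the second 6 h array. Pglyrp3, of the peptidoglycan recognition proteins, rose by 2.42. Its relatives Pglyrp1 and Pglyrp4 and the defensin gene Defb14 were at 1.80, 1.12 and 1.64, and lost their calls without the second 6 h array (1.14, 0.76 and 1.41). Pglyrp4 was not called either without untreated array 2 (1.09). Defb1, the constitutive beta-defensin of epithelia, was at 9.09 and 9.05 at 6 h, against 8.94 to 9.40 in untreated skin, and was not called.

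Nppb, the precursor of a natriuretic peptide, was among the 15 largest rises too, with 8.83 and 9.33 at 6 h against 3.71 to 4.93 in untreated skin (change 4.88, SE 0.36, adjusted p = 1.53e-13).

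**Figure D3:**
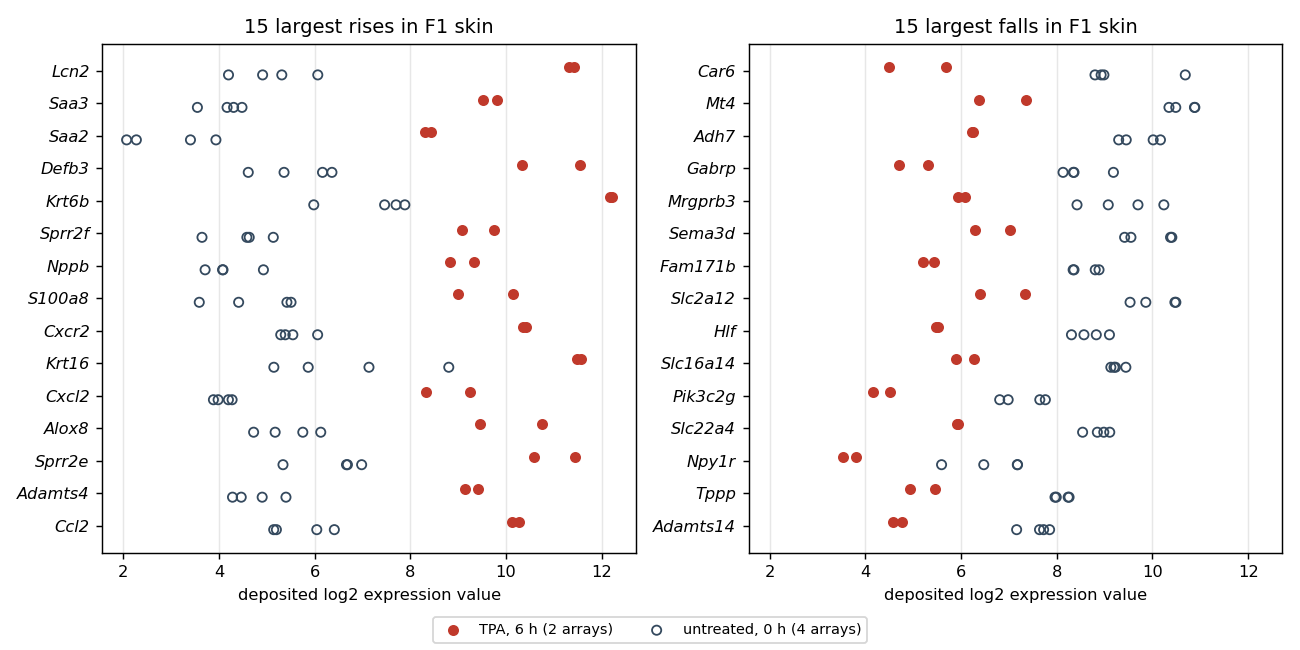
Deposited log2 value (x axis) in each array for the 15 genes with the largest rises (left) and the 15 with the largest falls (right) among called genes with an ordinary symbol. Filled points are the 2 TPA arrays at 6 h and open points the 4 untreated arrays, and for every gene shown the 2 groups do not overlap.

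Most genes for leukocyte-attracting chemokines were called higher. Of 28 measured, the calls were 20 higher and none lower, with a median change of 1.92, and 14 were called without the second 6 h array. Cxcl2, a ligand of the neutrophil receptor Cxcr2, stood at 8.33 and 9.25 at 6 h, against 4.27, 3.88, 4.20 and 3.98 in untreated skin, a change of 4.71 (SE 0.61, adjusted p = 1.46e-07). The untreated arrays lay close together, and the second treated array was the higher one. The paralog Cxcl1 rose by 3.02 (SE 0.36). The monocyte attractants Ccl2 and Ccl7 rose by 4.49 and 4.47. Ccl3 rose by 4.25, and Ccl20, which draws cells that carry Ccr6, by 4.07. The Ccr4 ligands Ccl22 and Ccl17 rose by 3.36 and 3.21, and the eosinophil attractant Ccl11 by 3.00. Ccl9, the eosinophil attractant Ccl24, the Ccr7 ligand Ccl19, the neutrophil attractant Cxcl5 and Ccl4 rose by 2.91, 2.74, 2.63, 2.10 and 1.22. Cxcl9, an interferon-gamma target, changed by 2.54 and by 2.27 without the second 6 h array, where its call was lost (adjusted p = 0.17). The calls of Cxcl16, Cxcl10, Cxcl3 and Cxcl11, at 1.75, 1.72, 1.69 and 1.66, were lost there too (1.41, 1.24, 1.42 and 1.16). Ccl5, at 1.42, was called neither without the first 6 h array (1.55) nor without the second (1.30). The homeostatic Cxcl12 and Cxcl14 changed by 0.16 and -0.47 and were not called.

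The receptor Cxcr2 was itself among the largest rises, at 10.42 and 10.37 at 6 h against 6.06, 5.29, 5.54 and 5.38 in untreated skin (change 4.82, SE 0.60). Cxcr2 is a neutrophil marker and the receptor for Cxcl1 and Cxcl2. Of the 13 neutrophil markers 3 were called higher, Cxcr2, Trem1 and Retnlg. Without the second 6 h array Trem1 and Retnlg were not called, at 1.64 and 1.78 (adjusted p = 0.19 and 0.069), and without the first Retnlg was not, at 1.64. The mean of the list was 0.37 and 0.51 at 6 h, against -0.62 to -0.38 in untreated skin. The granule genes Ngp, Ltf, Mpo and Elane changed by 0.14, 0.19, 0.18 and -0.14. The neutrophil receptor Csf3r changed by 1.35 (SE 0.52, adjusted p = 0.062), and by 1.55 without untreated array 3 (adjusted p = 0.042). The part of these cells in the rises of Cxcr2, S100a8 and S100a9 was not tested, and in whole skin more cells of a type and more RNA per cell cannot be told apart. Of 15 macrophage and monocyte markers 5 were called higher, led by the mannose receptor Mrc1 at 2.66 (2.85 without the second 6 h array, adjusted p = 0.067, and 2.48 without the first, adjusted p = 0.065) and the scavenger receptor Msr1 at 1.97, which kept its call in each of these fits. The macrophage receptors Csf1r and Adgre1 changed by -0.97 and -0.92 and were not called (Csf1r was at -1.04 without untreated array 1, adjusted p = 0.018). Without the second 6 h array 1 macrophage call was left. The calls lost besides that of Mrc1 were of Cd68 (1.68, then 1.70 with adjusted p = 0.062), the endotoxin co-receptor gene Cd14 (1.56, then 1.37) and the Fc receptor gene Fcgr1 (1.40, then 1.21). Cd163, a scavenger receptor, was at 1.57 and was not called. Of 6 B cell markers none was called. Of 9 T cell markers Cd3g was called lower, at -1.22, and lost its call in 5 of the 6 fits that leave out 1 array (-1.26 to -1.15), and Cd3e was at -1.05, not called. The T cell score was -0.24 and -0.11 at 6 h, against -0.09 to 0.34 in untreated skin. Of 9 markers of Langerhans cells and class II presentation, Cd207 (langerin) and the homing receptor gene Ccr7 were called higher at 1.86 and 1.54, and neither was called without the second 6 h array (1.41 and 1.35).

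Of 22 cytokine genes 16 were called higher and 1 lower, with a median of 1.31 and 9 rises without the second 6 h array. Il6, the fever and acute-phase cytokine, stood at 5.91 and 7.48 at 6 h, against 3.31, 3.08, 3.81 and 3.03 in untreated skin (change 3.39, SE 0.40, adjusted p = 3.81e-08). The second treated array was well above the first, and the change was 2.35 within batch 2 and 4.43 within batch 3. Il24 and Il19, cytokines of the interleukin 10 family that act on keratinocytes, rose by 3.59 and 2.83. Tslp, the keratinocyte signal to dendritic cells, rose by 3.45 to 9.03 and 9.02 at 6 h, against 5.18 to 5.78 in untreated skin. Il1b rose by 3.26, Il1f6, of the interleukin 1 family, by 2.38, and Tnf by 1.85. The myeloid growth factor gene Csf2 and Lif, of the interleukin 6 family, rose by 1.63 and 1.22. Il1a changed by 1.88, a call that was lost without the second 6 h array (1.55, adjusted p = 0.15). So were those of Il10 (1.66, then 1.12), Csf1 (1.39, then 1.19), the alarm cytokine gene Il33 (1.24, then 0.91) and Il23a (1.14, then 0.64). Osm, at 1.24, was not called without either 6 h array (1.17 without the first, 1.30 without the second). Il1f9, at 1.18, was not called in 4 of the 6 fits that leave out 1 array (1.00 to 1.36). Il18, a stored alarm cytokine of keratinocytes, was the 1 that fell, by 1.47 (SE 0.26). Csf3 and the receptor antagonist Il1rn changed by 0.50 and 0.40 and were not called.

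Of the genes of NF-kappaB itself and of its feedback, 12 of 17 were called higher and none lower, and 7 without the second 6 h array. Bcl3, a nuclear partner of the p50 and p52 subunits, rose by 4.03 (SE 0.37, adjusted p = 1.4e-10), with 9.70 and 10.04 at 6 h against 5.53 to 6.16 in untreated skin. The feedback genes Tnip3 and Tnfaip3, which restrain ubiquitin signalling upstream of the pathway, rose by 3.07 and 1.95, and the subunit gene Nfkb2 by 1.77. Nfkbie and Nfkbid, of the inhibitor family, rose by 1.84 and 1.36 and the feedback gene Tnip1 by 1.58. The calls of Birc3, Rel, Traf1 and Relb, at 1.35, 1.22, 1.14 and 1.11, were lost without the second 6 h array (1.12, 0.61, 1.01 and 0.98). So was that of Nfkbiz (1.04, then 0.66), which was also lost without untreated array 1 (0.93). The inhibitor Nfkbia and the subunit Rela changed by 0.78 and 0.84, below the size needed for a call (Rela was at 1.06 without the first 6 h array, adjusted p = 0.0091).

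Promoters of 6 genes that rose are shown because they hold, just upstream of the start, letters read by AP-1 or NF-kappaB, the factors through which TPA is known to act, and capitals mark those letters. The first 3 lines are of genes with the AP-1 letters TGANTCA, and the last 3 of genes with the kappaB letters GGGA, any base, TTTCC. Both strands were searched for both motifs. Each line gives the 250 bases before the annotated start, 5′ to 3′ on the strand of the gene, from RefSeq on build GRCm38.p6. All 6 genes lie on the plus strand, at chr9:7445572-7445821 for Mmp3, chr9:7272264-7272513 for Mmp13, chr3:92364937-92365186 for Sprr2f, chr5:90890995-90891244 for Cxcl1, chr5:90903649-90903898 for Cxcl2 and chr5:30012864-30013113 for Il6.
Mmp3: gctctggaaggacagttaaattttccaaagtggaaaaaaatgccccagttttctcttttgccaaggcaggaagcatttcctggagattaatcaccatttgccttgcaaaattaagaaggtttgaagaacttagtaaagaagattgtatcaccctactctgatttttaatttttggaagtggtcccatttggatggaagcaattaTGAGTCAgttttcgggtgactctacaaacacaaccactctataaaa
Mmp13: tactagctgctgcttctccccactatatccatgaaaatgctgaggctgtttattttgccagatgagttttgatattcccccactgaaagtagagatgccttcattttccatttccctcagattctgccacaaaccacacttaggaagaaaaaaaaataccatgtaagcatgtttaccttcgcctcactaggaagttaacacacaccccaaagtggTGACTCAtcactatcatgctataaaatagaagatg
Sprr2f: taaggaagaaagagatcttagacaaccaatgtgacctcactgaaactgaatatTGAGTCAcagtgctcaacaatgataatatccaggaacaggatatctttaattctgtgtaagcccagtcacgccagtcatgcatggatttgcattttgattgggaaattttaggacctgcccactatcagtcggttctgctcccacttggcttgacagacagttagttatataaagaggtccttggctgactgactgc
Cxcl1: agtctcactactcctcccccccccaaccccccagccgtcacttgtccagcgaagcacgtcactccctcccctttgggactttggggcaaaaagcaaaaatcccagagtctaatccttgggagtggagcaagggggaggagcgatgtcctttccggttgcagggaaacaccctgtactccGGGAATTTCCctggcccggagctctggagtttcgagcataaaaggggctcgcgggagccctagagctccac
Cxcl2: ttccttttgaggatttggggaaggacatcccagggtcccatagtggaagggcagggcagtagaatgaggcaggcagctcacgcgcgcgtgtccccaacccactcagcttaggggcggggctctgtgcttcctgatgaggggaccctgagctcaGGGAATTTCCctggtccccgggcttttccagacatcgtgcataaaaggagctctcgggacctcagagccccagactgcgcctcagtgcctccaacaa
Il6: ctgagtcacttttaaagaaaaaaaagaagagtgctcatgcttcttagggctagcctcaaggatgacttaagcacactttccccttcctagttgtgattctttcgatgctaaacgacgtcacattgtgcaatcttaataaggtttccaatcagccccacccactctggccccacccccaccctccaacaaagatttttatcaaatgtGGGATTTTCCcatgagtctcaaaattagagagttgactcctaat
The AP-1 letters began 46 bases before the start of Mmp3, 35 before that of Mmp13 and 197 before that of Sprr2f, and the kappaB letters 71, 97 and 44 bases before those of Cxcl1, Cxcl2 and Il6. The Il6 window also holds the AP-1 letters, near its far end and in lower case here, and no match of one motif overlaps one of the other in these 6 windows. Of 27025 genes with a promoter in the table, 6.87% held the AP-1 letters and 0.337% the kappaB letters. Among measured genes the shares were 9.03% of 775 called higher, 5.8% of 724 called lower and 5.93% of all 14749 for AP-1, and 1.16%, 0.138% and 0.353% for kappaB. The AP-1 letters stood in 10 of 15 promoters of the stress keratin and small proline-rich list and in 7 of 15 of the matrix protease list, and in 3 of 19 chemokine promoters. The kappaB letters stood in 3 of 19 chemokine promoters and in none of the 15 of the stress keratin list or the 15 of the protease list. In the cytokine list and the NF-kappaB list the AP-1 letters stood in 5 and 2 of 15 promoters, and the kappaB letters in 2 of 15 each. A match of letters is a description and no evidence of binding.

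Of the adhesion molecules by which vessels hold leukocytes, Icam1 and Selp (P-selectin) rose by 2.68 and 2.49, and 4 of 8 genes of the list were called higher and none lower. Vcam1 and Sele, at 1.27 and 1.01, were called with all arrays and lost their calls when single arrays were left out. Vcam1 was at 0.82 without the second 6 h array and at 1.22 and 1.25 without untreated array 2 or 4. Sele was at 0.98 and 1.03 without the first or the second 6 h array, and just under 1 without untreated array 2, 3 or 4. Of 8 endothelial markers, Pecam1 and Cdh5 were called higher, by 1.36 and 1.62. Tek and Emcn, 2 more of these, were at -1.01 and 0.90 and were not called.

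Of 19 interferon response genes, 6 were called higher and none lower, and 3 without the second 6 h array. They included Gbp2 (2.90), Irf1 (2.21) and the GTPase gene Irgm1 (2.09), all known targets of interferon-gamma. The other 3 were Cxcl10 (1.72), Oasl2 (1.52) and Gbp3 (1.64), at 1.24, 1.29 and 1.63 without that array, and Gbp3 was also not called without the first 6 h array (1.66). Ifit3, a target of type I interferon, changed by -0.18 and was not called.

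Growth factor signals were examined next, since ligands of the EGF receptor are shed by keratinocytes after TPA. Hbegf, the heparin-binding ligand, stood at 10.27 and 10.98 at 6 h, against 7.31, 6.20, 6.94 and 6.27 in untreated skin (change 3.95, SE 0.49, adjusted p = 7.88e-08, 15.4-fold). Nrg1, a ligand of Erbb3 and Erbb4, rose by 2.66. The further ligands Epgn, Tgfa and Ereg were called at 2.69, 1.84 and 1.32, and without the second 6 h array stood at 2.25, 1.43 and 1.34 (adjusted p = 0.14, 0.072 and 0.21). Ereg was not called either without the first 6 h array (1.29) or untreated array 4 (1.17). Btc, betacellulin, fell by 1.80, with 7.35 and 6.84 at 6 h against 8.38 to 9.43 in untreated skin. The receptor genes Egfr and Erbb3 changed by 0.48 and -0.89 and were not called. Of the 11 genes in all, 5 were called higher and 1 lower, and 2 higher without the second 6 h array. Among 14 genes that restrain ERK, 5 were called higher and 1 lower: the ERK phosphatases Dusp6 and Dusp5 rose by 2.53 and 1.51 and the Ras antagonist Spry4 by 1.31, while Dusp1 changed by 0.11 (SE 0.41). Of their relatives, Spred1, Spred3 and Spred2 were called at 1.08, 1.07 and -1.03 with all arrays, and stood at 0.83, 0.94 and -0.97 without the second 6 h array. Spred2 was at -0.97 also without untreated array 4, where its call was lost.

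Immediate early genes, which keratinocytes switch on within the first hour, were mixed at 6 h. Fos, a partner in AP-1, stood at 6.44 and 6.92 at 6 h, against 6.46, 6.25, 6.17 and 7.51 in untreated skin, so the groups overlapped (change 0.08, SE 0.39, 95% interval -0.70 to 0.87). Jun, Egr1, Atf3 and Fosb changed by 0.21, 0.86, 0.63 and -0.82 and were not called, and Egr1 was at 1.20 without the first 6 h array (adjusted p = 0.01). The orphan nuclear receptor gene Nr4a3 rose by 3.18, Ier3 by 1.70, Junb by 1.56 and Ier5 by 1.49. Of 24 genes of the list 8 were called higher and none lower, with 4 left without the second 6 h array. Among the calls lost there were those of Egr2 and Myc, which changed by 1.56 and 1.19 with both arrays and by 1.13 and 0.99 without it. The other 2 were Nr4a2 (1.11, then 0.75) and Zfp36 (1.10, then 0.94), the gene of a protein that destabilises cytokine mRNAs.

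Genes of the receptors of TPA were read as well. Of 14 genes for protein kinases C, protein kinases D and other phorbol ester receptors, none was called higher and 2 were called lower. Over all genes the shares were 5.44% higher and 4.98% lower, and the median change of the list was -0.21. Prkcb, the protein kinase C of immune cells among others, stood at 5.87 and 5.63 at 6 h, against 7.70, 8.33, 7.80 and 8.11 in untreated skin (change -2.23, SE 0.37), and Rasgrp4, known from mast cells, changed by -1.56. The epidermal kinases Prkca, Prkce and Prkch changed by 0.46, 0.25 and 0.22. Prkcd changed by -0.79 (adjusted p = 0.04), which did not reach the size needed for a call, and by -1.14 without the first 6 h array (adjusted p = 0.028).

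Enzymes of arachidonic acid divided. Ptgs2, the inducible cyclooxygenase, stood at 9.38 and 10.62 at 6 h, against 7.04, 7.16, 7.80 and 7.45 in untreated skin (change 2.64, SE 0.47, adjusted p = 4.01e-05). Its change was 1.81 without the second 6 h array (adjusted p = 0.065). Ptges, which turns its product into prostaglandin E2, rose by 2.12, and Pla2g4e, a cytosolic phospholipase, by 4.08. Alox8, the lipoxygenase known to be inducible by TPA in mouse skin, rose by 4.66 to 9.46 and 10.75 at 6 h, against 4.72 to 6.13 in untreated skin. Alox12, the platelet-type lipoxygenase, fell by 2.43, Alox5ap by 1.95 and Alox5 by 1.84. In all 4 of 14 were called higher and 4 lower, the last of these being Hpgd, which degrades prostaglandins (-1.41, and -1.02 without the second 6 h array, adjusted p = 0.32).

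Of 22 matrix proteases and their inhibitors, 13 were called higher and none lower, and 8 without the second 6 h array. Adamts4, which cleaves aggrecan and versican, had the smallest adjusted p of the genes named here, with 9.14 and 9.42 at 6 h against 4.90, 4.46, 5.40 and 4.28 in untreated skin (change 4.52, SE 0.31, adjusted p = 1.76e-14). Mmp3, stromelysin 1, stood at 9.85 and 9.80 at 6 h, against 5.42 to 5.83 in untreated skin (change 4.20, SE 0.64). Mmp13, the interstitial collagenase of the mouse, rose by 4.15, Mmp19 by 3.19, Mmp1b by 2.14 and Adamts1 by 1.47. The calls of Adamts9, Mmp12, the gelatinase gene Mmp9, the plasminogen activator inhibitor gene Serpinb2 and Mmp1a, at 2.35, 2.19, 1.93, 1.44 and 1.09, were lost without the second 6 h array (1.99, 1.83, 1.93, 0.99 and 0.78). The metalloprotease inhibitor Timp1 rose by 4.48 and the urokinase receptor gene Plaur by 3.33, whereas Timp3, the inhibitor bound to matrix, changed by -0.34. Of 8 hyaluronan genes 5 were called higher and 4 without the second 6 h array. The synthase Has2 rose by 4.15 (SE 0.44), the hyaluronan-binding Tnfaip6 by 4.34 and Ptx3 by 2.62. The synthase Has1 rose by 1.26, and the hyaluronan receptor gene Cd44 was called at 1.54 and not without the second 6 h array (1.18). Tenascin C (Tnc), a matrix protein of wounds, rose by 3.48, and of 17 collagen and matrix genes it was the 1 called higher. Col3a1, of fibrillar collagen III, was the 1 called lower, at -1.57, and lost its call without the second 6 h array (-1.02, adjusted p = 0.64) and without untreated array 1 (-1.45) or 2 (-1.34). The 1 call each way among 17 genes is near the shares over all genes, 5.44% higher and 4.98% lower. The crosslinking enzyme gene Lox and Postn (periostin) were at 1.13 and -0.97 and were not called. Of 8 fibroblast markers, which include Col3a1, the receptor gene Pdgfra was the 1 called higher, at 2.11 (1.92 and 2.29 without the first or the second 6 h array, not called in either).

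In the epidermal programme the stress keratins and small proline-rich proteins moved most. Of 21 genes 17 were called higher and none lower, with the highest median of the 31 lists, 3.11, and 14 calls without the second 6 h array. Krt6b, a keratin of wounded and hyperproliferative epidermis, stood at 12.18 and 12.21 at 6 h, against 7.46, 5.98, 7.70 and 7.88 in untreated skin (change 4.94, SE 0.80, 30.6-fold). Its partner Krt16 read 11.56 and 11.48 at 6 h, against 8.80, 5.15, 7.13 and 5.87, and rose by 4.79. Krt6a rose by 2.45, to 10.06 and 9.98 at 6 h against 6.57 to 9.37 in untreated skin. Untreated array 1, the one with hair shaft markers, was the highest untreated array for Krt16 and Krt6a. Sprr2f, Sprr2e and Sprr1b, precursors of the cornified envelope, rose by 4.92, 4.59 and 3.76. Further Sprr2 rises were of Sprr2d (4.24), Sprr2g (4.02), Sprr2h (3.57), Sprr2j-ps (3.24), Sprr2i (3.11) and Sprr2a1 (2.39), and Stfa3, of the stefin A protease inhibitors, rose by 3.49. Tgm1, the envelope transglutaminase, and Sprr1a were called at 1.60 and 1.51 and not without the second 6 h array (1.22 and 1.33). Stfa1, at 2.35, was not called without the first (2.10), and Sprr2b, at 1.64, in 4 of the 6 fits that leave out 1 array (0.97 to 1.67). Members of the Sprr2 family, Krt6a and Krt6b, and Saa2 and its neighbour Saa1 are near-identical copies, so the share of each in these signals is uncertain. Krt17 and involucrin (Ivl) changed by 0.70 and 0.07 and were not called.

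Terminal differentiation showed both directions. Of 17 suprabasal and cornified envelope genes 3 were called higher and 3 lower, with a median of -0.66. The late envelope genes Lce3a and Lce3c, known to be induced when the barrier is damaged, rose by 3.90 and 3.78, and the related Lce3f was called at 2.10 and not without the second 6 h array (1.76). The falls were of Flg2 (-1.49), Casp14 (-1.44) and the protease gene Klk5 (-1.35), which encode a filaggrin relative, a protease of filaggrin breakdown and a protease of corneocyte shedding. All 3 missed the threshold without the second 6 h array (-1.10, -1.10 and -0.94), where no fall of the list was called. Krt1 stood at 11.83 and 10.80 at 6 h, against 12.30 to 12.44 in untreated skin (-1.05, adjusted p = 0.088, and -1.67 without the first 6 h array, adjusted p = 0.038). Krt10 and Lor changed by -0.83 and -0.68 and were not called. Among 16 genes of basal adhesion, the integrin genes Itga5 and Itga2 rose by 2.54 and 1.93 and Krt15 fell by 2.65 (SE 0.45), while Krt5 and Krt14 changed by -0.57 and -0.40. Itgb1, the beta subunit with which both pair, was called at 1.24 and not without the second 6 h array (1.00).

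**Figure D4:**
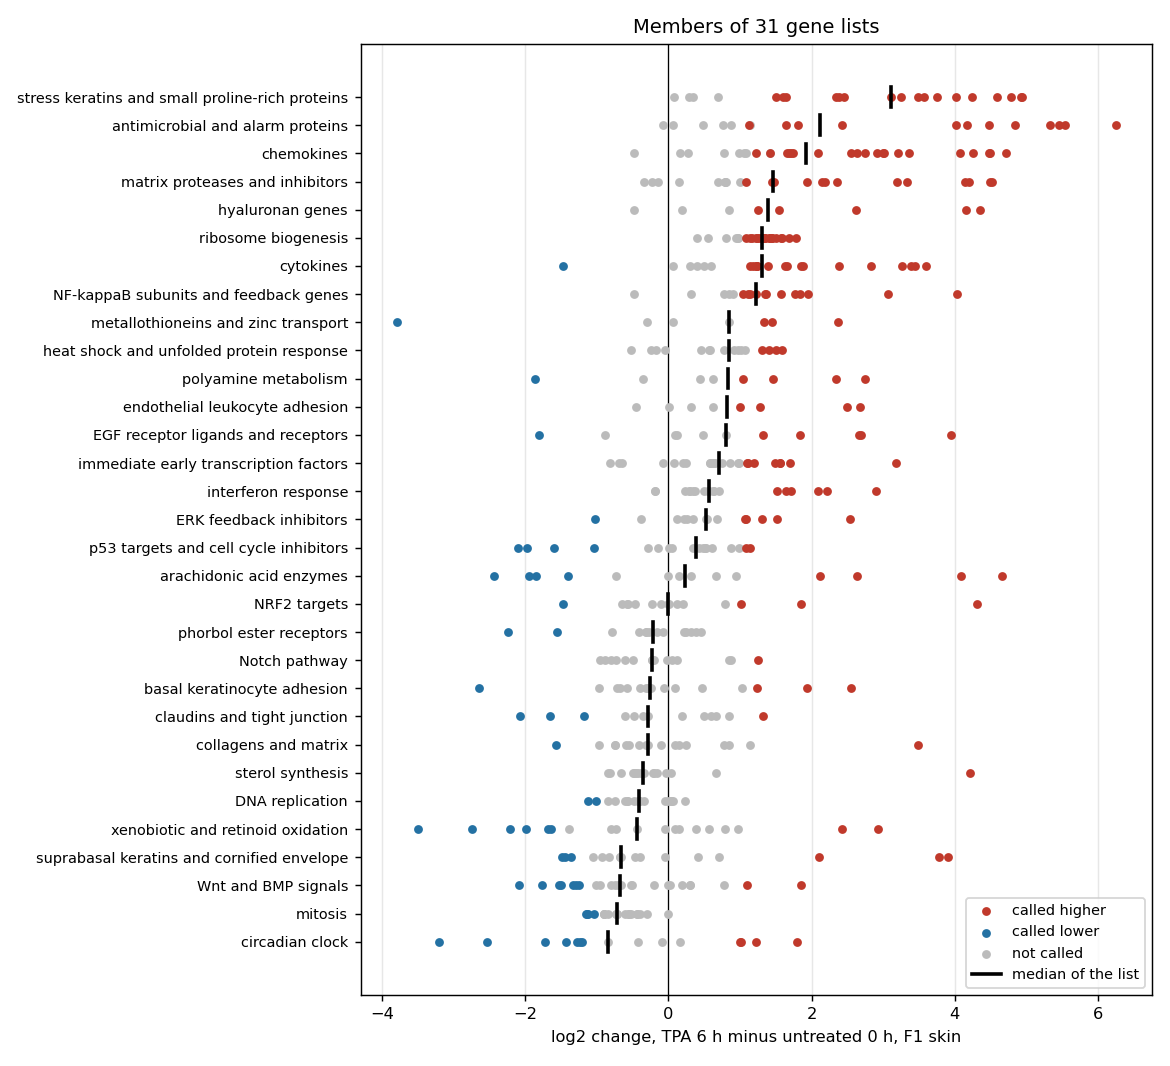
Change at 6 h against untreated F1 skin (x axis, log2 units) of each measured member of 31 gene lists, ordered by the list median (black bar); red points are members called higher, blue points members called lower, grey points not called. The stress keratin, antimicrobial and chemokine lists have the 3 highest medians, at 3.11, 2.11 and 1.92, and the circadian clock and mitosis lists the 2 lowest.

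Krt15 belongs also to the markers of hair follicle stem cells, of which 7 of 11 were called lower and none higher. Lgr5, the receptor that marks cycling follicle stem cells, stood at 6.66 and 6.28 at 6 h, against 9.76, 9.26, 8.98 and 9.22 in untreated skin (change -2.83, SE 0.36, adjusted p = 8.63e-08). Lhx2 and Lgr6 changed by -2.11 and -1.63, and Sox9, which the follicle also needs, by 0.01. Lrig1, Tbx1 and Nfatc1 were called at -1.15, -1.11 and -1.03, and stood at -0.81, -0.83 and -0.82 without the second 6 h array. Tbx1 and Nfatc1 lost their calls also without untreated array 1 (-0.96 and -0.99). Of the 7 calls 4 were left without the second 6 h array, and without untreated arrays 1 and 2, which differ in hair shaft and muscle, 5. The mean of the list was -0.34 and -0.79 at 6 h, against 0.63 to 0.92 in untreated skin. Untreated array 1, the one with hair shaft markers, was the highest at 0.92, and untreated array 2 stood at 0.77. Genes of the Wnt and BMP pathways, which pattern the follicle, were called lower for 7 of 24 and higher for 2. Sostdc1, an inhibitor of both pathways, fell by 2.08 (SE 0.32) and Dkk3 by 1.53, and Inhba, the activin subunit, rose by 1.85. Without the second 6 h array 2 of these falls were called, and Wnt4, Wnt7b and Bmp4, at -1.77, -1.49 and -1.33 with all arrays, stood at -1.40, -1.10 and -1.25. Bmp6 and Axin2, a ligand and a Wnt target, likewise went uncalled, at -1.29 and -1.25 with that array and -1.06 and -1.07 without it. Id1, a BMP target, was called higher at 1.10, and lost its call without the first (1.22) or the second (0.99) 6 h array or untreated array 4 (0.98). Of 15 Notch genes the ligand gene Dll4 was the 1 called, at 1.25, while Lfng, Jag2 and Dll1 were at -0.95, -0.88 and 0.87. Over all genes 5.44% were called higher and 4.98% lower, so 1 call in 15 does not set this list apart. Of 10 sebaceous gland markers 3 were called higher: Dgat2l6, of the wax and acylglycerol synthases, rose by 1.71, and Awat1 and Plin2 were at 1.54 and 1.06. The last pair was called neither without the first 6 h array (1.68 and 1.05) nor without the second (1.40 and 1.07). Of 9 melanocyte markers 2 were called lower, the pigment enzyme gene Dct at -1.41 and the regulator gene Mitf at -1.14. Dct was not called without the first (-1.25) or the second (-1.58) 6 h array, and Mitf in 5 of the 6 fits that leave out 1 array (-1.17 to -1.03).

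The 15 largest falls were led by Car6 (probe set 10518751), a secreted carbonic anhydrase, at 5.68 and 4.49 at 6 h against 10.69, 8.93, 8.98 and 8.80 in untreated skin (change -4.26, SE 0.70, adjusted p = 1.36e-05, 19.2-fold lower). Mt4, the metallothionein of stratified epithelia, stood at 7.35 and 6.37 at 6 h, against 10.49, 10.89, 10.35 and 10.88 in untreated skin (change -3.79, SE 0.41). The ubiquitous Mt1 changed by 1.45, a call lost without the second 6 h array (1.21, adjusted p = 0.13), and the zinc importer gene Slc39a14 rose by 2.36. The related Slc39a10 was called at 1.34 and not without that array (1.17). Adh7, an alcohol dehydrogenase that oxidises retinol, fell by 3.50, with 6.22 and 6.24 at 6 h against 9.29 to 10.17 in untreated skin. Of 19 genes of xenobiotic and retinoid oxidation 6 were called lower and 2 higher. Aldh3a1, Ephx1, Cyp1a1 and Cyp1b1 fell by 2.22, 1.98, 1.68 and 1.63, and the retinaldehyde dehydrogenase gene Aldh1a3 and the retinol dehydrogenase gene Dhrs9 rose by 2.93 and 2.42. Adh1, a further alcohol dehydrogenase, was called at -2.74 and not without the second 6 h array (-2.61, adjusted p = 0.07). The GABA receptor subunit gene Gabrp, the guidance signal gene Sema3d, the glucose carrier gene Slc2a12 and the organic cation carrier gene Slc22a4 were further called falls, of -3.50, -3.28, -3.22 and -2.95. Pik3c2g (a lipid kinase), Npy1r (a receptor of neuropeptide Y), Tppp (a tubulin-binding protein) and Adamts14 (a procollagen protease) were called lower, with changes of -2.97, -2.94, -2.93 and -2.92. The change was -3.17 for Slc16a14, of the monocarboxylate carrier family, -3.28 for Fam171b and -3.35 for the Mas-related receptor gene Mrgprb3. Of 11 mast cell markers, Hdc, which makes histamine, rose by 1.96 and the receptor gene Mrgprb2 fell by 1.45, and no mast cell protease was called.

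Clock genes and their output factors changed, in samples whose time of day is not given. Of 15, 7 were called lower and 4 higher, and without the second 6 h array 7 falls and 1 rise were called. Hlf, a PAR-domain output factor, stood at 5.53 and 5.48 at 6 h, against 8.31, 8.83, 8.57 and 9.10 in untreated skin (change -3.20, SE 0.33, adjusted p = 1.44e-09). The related Tef fell by 1.72, Per3 by 2.54 and the repressor gene Nr1d2 by 1.42. Per1, Ciart and Cry2, of the repressor arm of the clock, fell by 1.28, 1.24 and 1.20. Bhlhe40, a repressor that growth signals also induce, rose by 1.80. Cry1, Nfil3 and Npas2 were called at 1.22, 1.02 and 1.01, and stood at 1.03, 0.77 and 0.69 without the second 6 h array. Nfil3 was not called either without untreated array 2 (0.95) or 4 (0.74), nor Npas2 without untreated array 3 (0.89). The core gene Arntl changed by 0.17 and was not called. Time of day and TPA cannot be told apart in these values.

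Most genes of the list for making ribosomes were called higher, each by under 2 log2 units. Of 25, 19 were called higher and none lower, with a median of 1.31 and both treated arrays above all untreated ones for all 25 (either side, 51.5% of all genes). The count was 8 without the second 6 h array. Rrp12 stood at 8.18 in both arrays at 6 h, against 6.38, 6.12, 6.70 and 6.37 in untreated skin (change 1.79, SE 0.26), and Nop2 and Heatr1, which act in rRNA modification and transcription, rose by 1.69 and 1.59. Gnl3, Utp20, Nolc1, Rrp9 and Bop1, of nucleolar processing, rose by 1.50, 1.45, 1.42, 1.35 and 1.33. The processing genes Ddx21, Nop56, Nop58, Noc3l and Wdr43 were called at 1.58, 1.45, 1.40, 1.35 and 1.31, and not without the second 6 h array (1.30, 1.16, 1.12, 1.23 and 0.94). The same held for Mybbp1a, Rrp1b, Wdr12 and the RNA polymerase I subunit gene Polr1b, at 1.27, 1.22, 1.17 and 1.23 with all arrays and 1.10, 0.96, 0.99 and 1.11 without that one. Nop16 and Polr1a, at 1.14 and 1.08, were called neither without the first 6 h array (1.32 and 1.17) nor without the second (0.96 and 0.98), and Nop16 was not called without untreated array 4 (1.04).

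Odc1, the rate-limiting enzyme of polyamine synthesis and a classical response to TPA, stood at 9.95 and 10.26 at 6 h, against 7.92, 8.07, 7.44 and 7.60 in untreated skin (change 2.35, SE 0.35, adjusted p = 1.91e-06). Spermine oxidase (Smox) rose by 2.74 and spermidine synthase (Srm) by 1.47, and of 8 genes of the list 4 were called higher and 1 lower. Sat1, which breaks polyamines down, was called at 1.03 and not without the second 6 h array (0.80) or untreated array 1 (1.00, just under the size needed). The 1 lower was Arg1, which makes the ornithine that Odc1 uses, at -1.86 and, without the second 6 h array, at -1.50 and not called. Slc7a11, the cystine carrier, rose by 4.31 and Srxn1 by 1.86, while their fellow NRF2 targets Nqo1 and Hmox1 changed by -0.23 and -0.11, and 3 of 15 on that list were called higher and 1 lower. The third rise, of the thioredoxin reductase gene Txnrd1, was 1.01, and 0.58 without the second 6 h array and 0.97 without untreated array 2, where it was not called. The glutathione transferase gene Gstm1 was called at -1.47 and not without the second 6 h array (-1.19). Of 16 heat shock and unfolded protein genes 4 were called higher and none without that array: Asns (1.59, then 1.28), Dnajb9 (1.50, then 0.95), the chaperone gene Hspa5 (1.41, then 1.03) and Sdf2l1 (1.30, then 1.26). Hspa5 was not called either without untreated array 4 (1.29). Ch25h, which makes the oxysterol 25-hydroxycholesterol, rose by 4.22, the 1 call among 16 genes of sterol metabolism. That count is near the 5.44% called higher over all genes. The synthesis genes Hmgcs1, Mvk and Idi1 were at -0.84, -0.82 and 0.67, not called. Of 13 tight junction genes 3 were called lower and 1 higher: the claudin gene Cldn8 and the scaffold gene Tjp3 fell by 2.07 and 1.65, Cldn23 was at -1.18 (-0.98 without the second 6 h array, not called), and Cldn4 at 1.32. The call of Cldn4 was lost without the second 6 h array (0.86) and without untreated array 2 (1.18) or 4 (1.22).

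Cell cycle genes gave falls and no called rise at this time. None of 21 mitosis genes and none of 18 DNA replication genes was called higher, and 4 and 2 were called lower. Over all genes 4.98% were called lower. No mitosis gene had a positive change, and the list medians were -0.72 and -0.41. Both treated arrays lay below all untreated ones for 18 of 21 and 10 of 18 (either side, 51.5% of all genes). Mki67, the proliferation marker, stood at 7.25 and 7.08 at 6 h, against 8.35, 8.35, 7.90 and 8.68 in untreated skin (change -1.15, SE 0.24). Ccna2 and the helicase subunit gene Mcm6 changed by -1.12 each. These calls were lost without the second 6 h array, with -1.01 for Mki67 and -0.88 for each of the others, and no gene of either list was then called. The other calls, of Ccnb2 (-1.14), Cenpf (-1.04) and the primase gene Prim1 (-1.01), stood at -1.08, -1.04 and -0.94 there. Cenpf was not called either without the first 6 h array (-1.05) or untreated array 4 (-0.87), nor Prim1 without untreated array 2 (-0.87) or 3 (-0.98). The replication genes Rrm1 and Mcm5 were at -0.84 and -0.75 and were not called. The cell cycle inhibitor gene Cdkn1b fell by 1.60 and Sesn1, a p53 target, by 2.10, both in a list of 18 with 4 called lower and 2 higher (2 lower and none higher without the second 6 h array), while Cdkn1a changed by 0.61 (adjusted p = 0.11). The calls lost there were of Trp53inp1 (-1.98, then -1.59), Cdkn2b (-1.04, then -0.97) and the stress genes Gadd45a (1.13, then 1.00, adjusted p = 0.078) and Gadd45b (1.09, then 0.88). Gadd45b was not called either without untreated array 4 (0.99).

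Against 4 h, the skin at 6 h gave 0 called genes by limma, with 498 genes (2.65%) at an unadjusted p under 0.05. The 6 h and 4 h arrays number 2 each, and no other tool was run. Lcn2 averaged 11.38 at 6 h and 11.13 at 4 h, and Krt6b 12.19 and 11.38. Defb3 and S100a8 were 3.10 and 2.12 log2 units higher at 6 h (SE 0.92 and 1.07), neither of them called.

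From 6 h to 12 h, 320 genes (1.7%) were called, 167 of them higher at 12 h (0.887%) and 153 lower (0.813%). Replication and mitosis genes turned: 14 of 18 and 15 of 21 were called higher at 12 h than at 6 h. Mki67 stood at 8.61 and 8.71 at 12 h, against 7.25 and 7.08 at 6 h (difference 1.50, adjusted p = 0.00112), and Ccna2 was 1.91 higher. The fatty acid desaturase gene Scd2 stood at 10.20 and 10.68 at 12 h, against 7.29 and 7.36 at 6 h, the largest called rise (3.11) among genes with an ordinary symbol. Slc16a14, among the 15 largest falls at 6 h, was 2.32 higher at 12 h, and Igfl3, Oas1f and Vsnl1 were 2.65, 2.32 and 2.21 higher. Of the chemokine genes 7 were called lower at 12 h, Cxcl9 by -3.28, Cxcl2 by -3.04 and Ccl17 by -2.95 among them. Cxcl2 stood at 5.65 and 5.86 at 12 h, against 8.33 and 9.25 at 6 h, and Slc26a4, an anion exchanger gene, was 2.95 lower. Eno3, the enolase of muscle, was 3.08 lower at 12 h, and the mean of the muscle markers was -0.41 and -0.86 at 12 h against 1.89 and 2.16 at 6 h. The part of muscle in the fall of Eno3 was not tested. Of the 21 stress keratin and small proline-rich genes none was called in either direction.

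These 12 h calls rest on 2 arrays in each group. The count was 17 without the second 6 h array, 129 and 76 without the first or second 12 h array, and 0 in batch 2 alone. Without the second 6 h array no replication, mitosis or chemokine gene was called, with Mki67 at 1.35 higher (adjusted p = 0.119) and Cxcl2 2.49 lower at 12 h (adjusted p = 0.483). Without the first 12 h array 4 replication and 4 mitosis genes were called, without the second 7 and 5, and no chemokine gene in either case, while 3 chemokine genes were called without the first 6 h array. Of the 10 genes with the largest called rises and falls, Scd2 alone was still called without the second 6 h array, at 3.10.

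**Figure D5:**
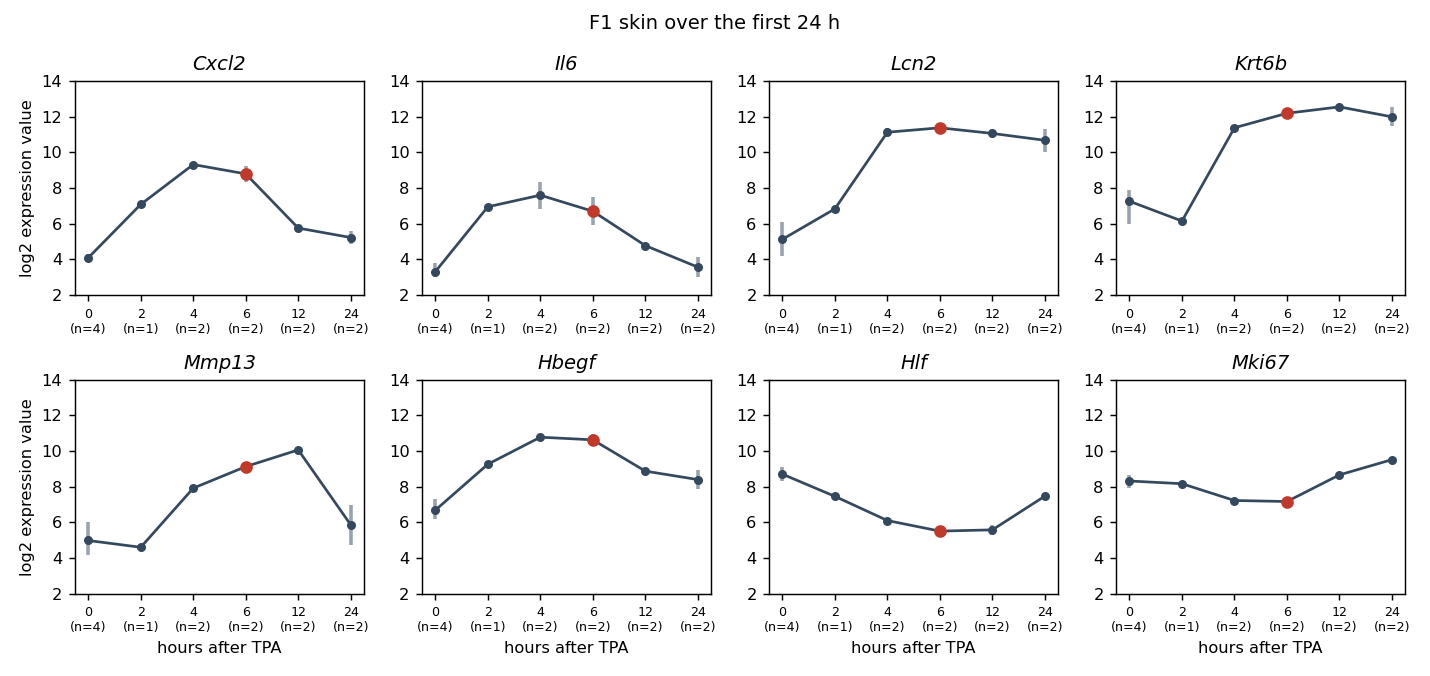
Deposited log2 value (y axis) of 8 genes in F1 skin at 0, 2, 4, 6, 12 and 24 h after TPA (x axis, not to scale, with the number of arrays under each time); points are means, vertical lines join the lowest and highest array, and the red point is 6 h. Cxcl2, Il6 and Hbegf are highest at 4 h, Mmp13 and Krt6b at 12 h, and Mki67 is lowest at 6 h and highest at 24 h.

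The named genes had their highest values at different times of the first day. In untreated skin Cxcl2 averaged 4.08. It then read 7.08 in the single 2 h array, averaged 9.32 and 8.79 in the arrays taken after 4 and 6 h, and was down to 5.75 by 12 h and 5.22 by 24 h. Mmp13, which had 4.98 in untreated skin, averaged 7.91, 9.12 and 10.06 after 4, 6 and 12 h, and 5.86 by the end of the day. For Hlf the untreated mean was 8.70, the lowest mean was the 6 h one at 5.50, and 7.47 was measured after 24 h. Apart from the contrasts given above, neighbouring times were not tested.

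The changes at 6 h were set beside those of FVB skin, with its own 3 arrays at 6 h and 3 at 0 h. Their difference was called for 0 genes by limma, and 731 genes (3.88%) had an unadjusted p under 0.05. Lcn2 changed by 6.25 in F1 and 4.95 in FVB skin (difference 1.30, 95% interval -0.66 to 3.26), Cxcl2 by 4.71 and 4.35 (0.36, -1.32 to 2.04) and Hlf by -3.20 and -2.68 (-0.52, -1.43 to 0.39). Each of these intervals holds differences of over 1 log2 unit as well as 0. All FVB arrays belong to batch 1, so strain and batch cannot be told apart in this difference. The labels do not say how Spret/Ei alleles were treated in the probe sets, and how they bind F1 RNA was not examined.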

How the data were processed

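Total RNA of whole dorsal skin was hybridised to Affymetrix arrays. The deposited values are log2 signals per probe set, made with RMA per the submitters' processing notes, with no version given there, and they were used as deposited. Precision is limited by how few arrays there are. Of 35556 probe sets, 21218 carried 1 gene symbol, 1881 several and 12457 none. Only those with 1 symbol were used, and for each of the 18820 genes the brightest one, by its mean over arrays, was kept. Groups came from the labels, and 3 of 69 arrays, which lack a strain, entered no fit.

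A limma model (version 3.58.1, R 4.3.3) with 27 group means and a term for batch 3 was fitted to 66 arrays, leaving 38 residual degrees of freedom shared by all groups. The fit includes 2 arrays of narrow range, with interquartile ranges of 2.385 (F1 at 72 h) and 1.385 (Spret/Ei at 12 h). The other arrays lay between 3.397 and 3.891. Tests were moderated and two-sided, and adjusted by Benjamini-Hochberg over all genes. The procedure was tested on simulated data. The 4 contrasts were 6 h minus 0 h, 6 h minus 4 h, 12 h minus 6 h and the F1 minus the FVB change at 6 h.

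The comparison and the 31 gene and 17 cell type lists were chosen with earlier results of these data known. Genes were named by rule: the 15 largest called rises and falls with ordinary symbols and non-overlapping groups, the called members of each list and its 4 largest changes, Odc1, Ptgs2, Fos, Il6 and Krt6a, and 5 rises and falls for the other contrasts. The uncalled genes among the 4 largest changes of a list are not all given by name. A further 34 genes, mostly uncalled ones such as Jun, Krt5, Krt14, Egfr and Nfkbia, were chosen after their values were seen. Gene roles are background knowledge. Replicate numbers were not treated as pairs. Deviations of same-numbered arrays at 6 h and 0 h correlated at r = 0.066 and -0.116. Those of 6 h array 1 with untreated array 3 and 6 h array 2 with untreated array 4 correlated at -0.245 and 0.013. With 2 arrays at 6 h, the deviations of each mirror those of the other, so these values cannot show whether numbers pair arrays. Alternatives changed the prior, the scaling, the filter on dim probe sets, the probe sets, the threshold on size, the samples fitted, the batch term and the replicate block, and left out arrays.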

Additional observations from a re-analysis of the deposited data

Results flagged for a closer look

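Single untreated F1 arrays were flagged as apart from the other 3, by Dixon's criterion at its 95% level, for the genes and the 3 list scores given here. Chance alone flags about 1 in 20 groups. The flags were not set against the number of groups examined, so any single flag may be chance, and some gaps are small. Untreated array 1 was high for Car6 (10.686, next 8.985) and low for Casp14 (10.233, next 10.466), Per3 (8.209, next 8.782) and the T cell receptor chain gene Cd3g (8.688, next 9.311). It was high for Mmp12 (5.423, next 5.122) and for the hair keratin genes Krt27 (10.346, next 5.076), Krt33a (10.328, next 4.432) and Krt71 (11.05, next 5.791). Its hair shaft and inner root sheath score was 2.99, next -0.98. Untreated array 2 was high for Per1 (9.483) and low for the muscle actin gene Acta1 (6.58, next 9.387), for Zfp36 (7.629, next 7.904) and in its suprabasal and cornified envelope score (-0.102, next -0.0355). Untreated array 3 was high for Tnf (6.109), Sat1 (9.166), Csf3r (4.875), Csf1 (7.047) and Dll1 (8.049). Untreated array 4 was high for Dusp1 (10.818) and low for Prkce (6.787) and in its macrophage and monocyte score (-0.874, next -0.492).

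One array at 6 h after TPA carries no strain in its labels and entered no comparison. Lcn2 stood at 10.831 in it, against at most 6.065 in untreated F1 skin.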

How the results depend on the processing

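The 1960 calls at 6 h stayed within 1.5 times of that count in the fits not listed here. They numbered 3569 (1654 higher, 1915 lower) without the threshold on size, 142 (96 and 46) in batch 2 alone and 3442 (1650 and 1792) in batch 3 alone. Leaving out 1 array gave 825 to 2281 calls, 464 to 1057 of them higher and 361 to 1224 lower, with the lowest counts without the second 6 h array. With each array centred on its median, 61.5% of calls were higher against 52.2%. Leaving out untreated arrays 1 and 2, chosen after seeing the data, gave 1722. The replicate block, on numbers not known to pair the arrays, gave 1816 calls at 6 h, 278 for 12 h minus 6 h and 1 for F1 minus FVB.

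For 6 h minus 4 h, 1 gene was called after cyclic loess, with F1 arrays alone and without the 2 arrays of narrow range, and 0 to 2 with 1 array left out. For 12 h minus 6 h, calls numbered 493 after cyclic loess, 546 with F1 arrays alone, 792 with only the arrays compared, 515 without the narrow arrays, 0 in batch 2 alone, 940 in batch 3 alone and 17 to 252 with 1 array left out. For F1 minus FVB they numbered 11, 2, 11 and 5 under the first 4 of these settings (with FVB kept), 0 to 1 with 1 array left out, and had no value within a batch. The causes were not tested.

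Of the 360 genes that the naming rule gives or that were added to them, 269 were called. None of these changed direction in any setting, and 156 were called in each of the 6 fits that leave out 1 array. The calls of 112 were lost without the second 6 h array, of 21 with the replicate block and of 221 in batch 2 alone.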

Other observations

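Among arrays outside the comparison, the single 6 h array of unknown strain lay above all 4 untreated F1 arrays for 15 of the 15 largest F1 rises and below them for 15 of the 15 largest falls. The single Spret/Ei array at 6 h likewise lay beyond both untreated Spret/Ei arrays for 15 of 15 rises and 15 of 15 falls. In it, Lcn2 stood at 10.84, against 5.72 and 5.60 in untreated Spret/Ei skin. Saa3, at 8.40, stood above 4.90 and 4.71 there. Some distances were small: Npy1r stood at 3.55 in the Spret/Ei array at 6 h, against 4.09 and 4.03 in untreated Spret/Ei skin. With 1 array at 6 h, no spread is known for either strain label. The share of all genes that lie beyond the untreated arrays in this way was not counted, so the counts of 15 have no background.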
